A study of Mus musculus with 18 samples.

Results

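A set of 42 mouse chromosome 1 genes for signalling, apoptosis, transcription and extracellular matrix was followed in embryo fibroblasts that carried 3 copies of that chromosome. The members were taken by name from a list, with earlier results of these data known when the list was chosen. Of the 42 genes, 38 had a probe set annotated to that gene alone, and 35 of these reached a mean log2 value of 4 over all arrays and were tested, out of 7382 tested genes in all. Fzd5, Bcl2 and Per2 had probe sets below that minimum, and Serpine2, Hdac4, Prdx6 and Soat1 are named only.

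The cells were mouse embryo fibroblasts (MEFs), connective tissue cells grown from embryos, kept for 2 passages in culture. RNA of each line was hybridised to 1 Affymetrix array, 18 in all. The 9 control lines were labelled Wt, and no extra chromosome is named in their labels. The trisomic lines carried 3 copies of chromosome 1 (Ts1, 1 line), chromosome 13 (Ts13, 4 lines), chromosome 16 (Ts16, 3 lines) or chromosome 19 (Ts19, 1 line). By the labels, only the trisomy 1 line therefore had an extra copy of the listed genes, and it is a single line on a single array. Its title, MEF-836-3-Ts1, shares its first number with that of control replicate 9, MEF-836-1-Wt, which is called the number-matched control below. What the number stands for is not explained in the labels.

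A trisomic cell has 3 templates of each gene on the extra chromosome in place of 2, and a transcript that follows the number of templates would be 1.5-fold higher, or 0.58 on the log2 scale. Cells can depart from that ratio where feedback acts on a gene or where its level follows growth conditions. In fibroblasts the listed genes include fibronectin and a laminin chain, which build the matrix, and receptors for BMP, Wnt and ephrin signals. The list also holds transcription factors of the cAMP, endoplasmic reticulum stress and hedgehog pathways, and a caspase with its inhibitor.

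All 10 fibroblast markers of trisomy 1 lay inside the range of the controls, and 4 of the 9 off chromosome 1 were above the control mean. Col1a1, Col3a1 and Vim had log2 values of 15.73, 15.54 and 15.88 (controls 14.91 to 15.93, 15.02 to 15.69 and 15.82 to 16.06). Pdgfra was at 9.76 (9.70 to 11.84) and Lum at 7.96 (3.60 to 11.77). The mean log2 level of 9 macrophage markers was 2.82 in trisomy 1 and 2.62 to 5.07 in controls, and that of 5 erythroid and liver markers was 2.16 and 2.10 to 2.19. The mean of 6 endothelial markers was 2.66 in trisomy 1 and 2.01 to 2.37 in controls, with Pecam1, Cdh5, Tek and Tie1 at 1.90 to 2.32 in trisomy 1, and Kdr (2.94) and Emcn (4.69) above all controls. Some genes of other lineages lay above all 9 controls there: Krt18 at 8.08 (controls 3.88 to 7.27), Des at 8.18 (4.87 to 7.51), Acta1 at 12.24 (8.50 to 11.87) and Col2a1 at 10.82 (5.01 to 10.11). The other epithelial markers, Cdh1, Epcam, Krt8, Krt14 and Cldn4, lay inside the control range. So did the skeletal muscle markers Myog, Myod1 and Myh3, and Acan, Sox9 and Sp7 of cartilage and bone. Neural and adipocyte markers with a probe set were also inside it, except Gfap near the floor at 2.57 (2.44 to 2.54). Des is itself on chromosome 1, as is Col3a1. The part of these markers in the values of the listed genes was not tested. In bulk cultures, fewer cells of a type and less RNA per cell cannot be told apart. On 3 arrays (trisomy 13 replicates 3 and 4 and trisomy 16 replicate 1) the 3' probe set of Gapdh exceeded its 5' probe set by 5.57 to 6.94 on the log2 scale, against -0.20 to 1.41 on the other 15. These are called 3'-biased arrays below. Trisomy 1 was at 0.60 and the number-matched control at 1.41.

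In trisomy 1, 31 of the 35 tested members had a value above the control mean, and the median difference was 0.62 on the log2 scale, or 1.54-fold, with quartiles of 0.30 and 0.95. For the 379 other tested chromosome 1 genes the median was 0.71 and 90.8% were above the control mean. For the 6961 tested genes elsewhere the median was 0.03 and 53.2% were above it. The members therefore lay near the median of their chromosome, and both lay apart from the rest of the genome.

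Against the 9 individual controls, 21 of the 35 members were above all 9, 14 lay inside the control range and 0 lay below it. Of all tested genes, 14.5% were above all 9 controls and 10.3% below all 9. The share above was 59.9% among the other chromosome 1 genes and 11.8% elsewhere, so that the 21 of 35 members were at the background of their own chromosome. For 14 members, the trisomy 1 array was the highest of all 18. The share of other chromosome 1 genes, or of all tested genes, for which it was the highest is not given here.

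No member passed the threshold for trisomy 1 minus control in limma, with an adjusted p under 0.05 over 7382 genes. Of all tested genes 0.0406% passed, which was 3 genes: Rgs5 on chromosome 1 and Sncg, both higher, and Mxd3, lower. At an unadjusted p under 0.05 in limma, where 6.29% of all tested genes lay, there were 9 members, all of them above the controls: Adipor1, Cflar, Creg1, Lamc1, Uap1, Fzd7, Inhbb, Ercc5 and Atf6. That share is over all chromosomes, and the share among the other chromosome 1 genes is not given here. With 1 array in the group, the test assumes that trisomy 1 varies like the other groups. Adipor1 passed with the Gapdh 3' to 5' difference as a covariate (adjusted p 0.036 in limma) and without the filter on low values (0.037).

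The size of the difference varied from gene to gene. It was below 0 for 4 members, between 0 and 0.58 for 13, between 0.58 and 1 for 10, and 1 or more for 8, namely Cflar, Ercc5, Inhbb, Fzd7, Atf6, Creg1, Casp8 and Adipor1. The shares among the other chromosome 1 genes were 9.23%, 31.9%, 28.8% and 30.1%. When the difference was tested against 0.58 in place of 0, no member passed (limma, adjusted over 414 chromosome 1 genes), and 0.242% of chromosome 1 genes did, which was Rgs5 alone. Cflar, Adipor1 and Creg1 had an unadjusted p under 0.05 in that test, all above the 1.5-fold ratio. These are 3 of 35 members, near the 7.73% of chromosome 1 genes at that p.

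**Figure D1:**
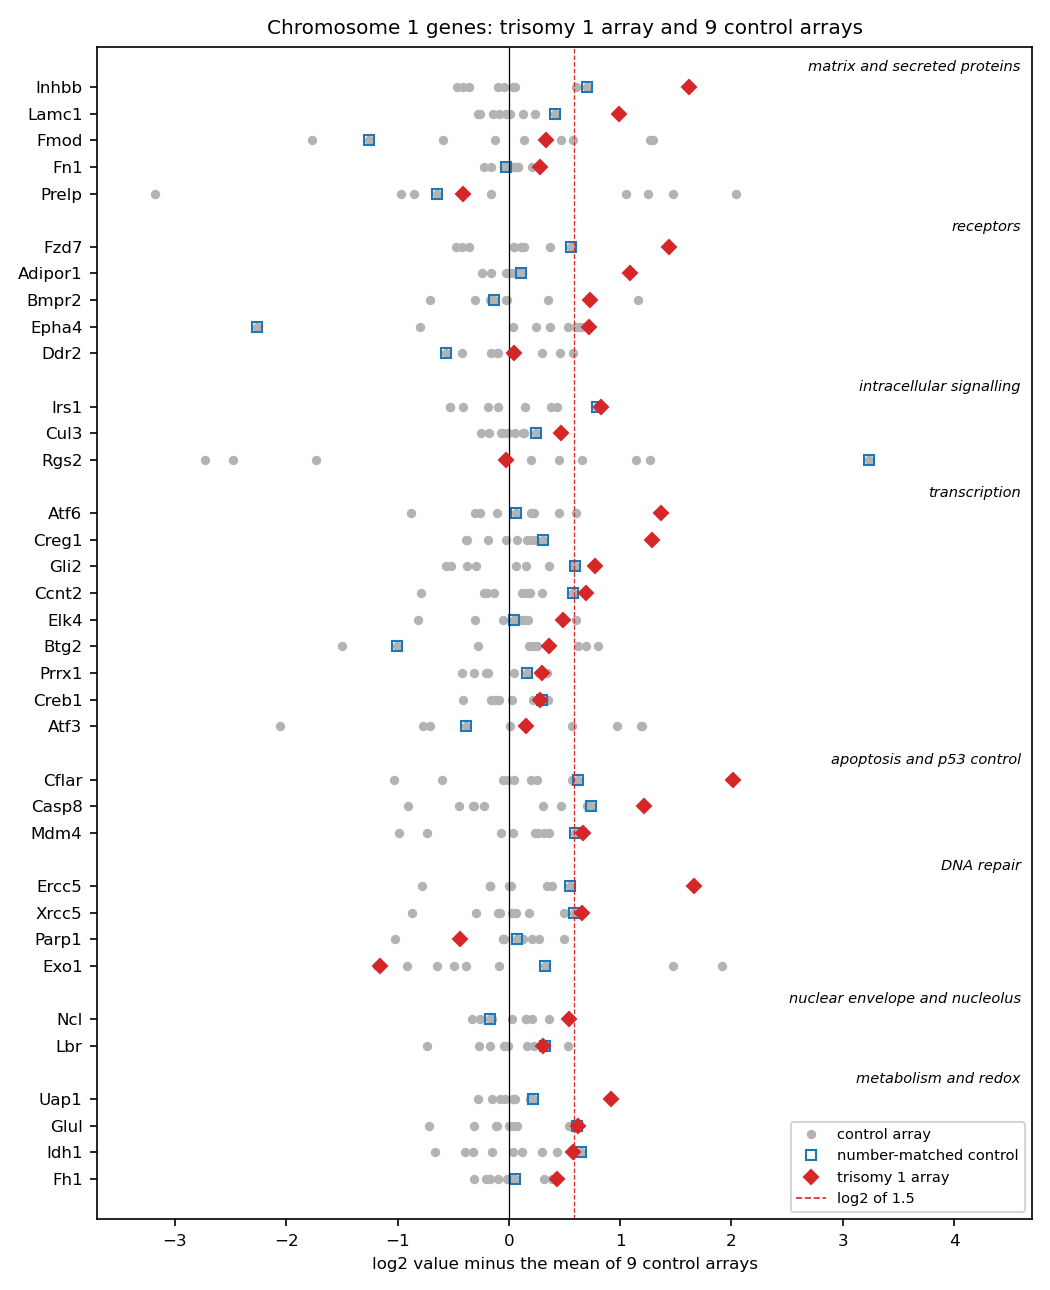
Log2 value of each tested member minus its mean over 9 controls (x axis), by role. Grey points are control arrays, the blue square is the number-matched control, the red diamond is the trisomy 1 array and the dashed line is the log2 of 1.5. The diamond is right of every control for 21 of 35 members, and furthest right for Cflar at 2.01, while Exo1 is furthest left at -1.16.

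Of the 6 matrix and secreted proteins, 5 were tested, 4 were above the control mean and 3 above all 9 controls. Inhbb, the beta B subunit of inhibins and activins, had log2 values of 8.98 to 10.15 in controls, with a median of 9.41, and 11.07 in trisomy 1. It was 9.29, 9.78, 10.32 and 10.62 in trisomy 13, 9.94, 8.84 and 7.97 in trisomy 16, and 9.66 in trisomy 19. The trisomy 1 value was the highest of the 18, and 1.62 ± 0.59 (SE) above the control mean with an adjusted p of 0.63 in limma. Lamc1, the laminin gamma 1 chain of basement membranes, was at 11.76 against 10.49 to 11.18 in controls, a difference of 0.99 ± 0.28 (adjusted p 0.43 in limma).

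Fn1, which encodes the matrix glycoprotein fibronectin, was at 15.47 against 15.19 ± 0.13 (SD, n = 9) in controls. That was 0.07 above the highest control. A second Fn1 probe set, of lower signal, had a difference of 1.27 in place of 0.28.

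The small leucine-rich proteoglycans Fmod (fibromodulin) and Prelp, which bind collagen fibrils, are neighbours on the chromosome, with 0 protein-coding genes between them. Prelp ran from 3.78 to 9.00 in controls, with a median of 6.79, and was 6.55 in trisomy 1. It was 4.96, 8.05, 10.48 and 7.93 in trisomy 13, 10.17, 10.20 and 10.33 in trisomy 16 and 10.91 in trisomy 19. Trisomy 1 lay inside the control range at a difference of -0.41, while the trisomy 16 and 19 arrays and trisomy 13 replicate 3 were above every control.

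Fmod was 12.00 in trisomy 1 and 9.90 to 12.97 in controls, a difference of 0.33. The other 5 Fmod probe sets differed by 0.52 to 1.37. For both proteoglycans the lowest control was replicate 4 and the highest replicate 6.

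All 5 tested receptors were above the control mean, and 3 were above every control. Fzd7, a Frizzled receptor for Wnt ligands, had values of 9.97 to 11.00 in controls, with a median of 10.49, and 11.88 in trisomy 1. It was 10.61, 10.40, 11.40 and 12.01 in trisomy 13, 11.13, 10.49 and 10.24 in trisomy 16, and 10.79 in trisomy 19. Only the 3'-biased trisomy 13 replicate 4 was higher than trisomy 1, whose difference was 1.44 ± 0.49 (adjusted p 0.57 in limma).

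Adipor1, a receptor for the adipocyte hormone adiponectin, varied little among controls, from 11.60 to 11.96 with a median of 11.87. In trisomy 1 it was 12.93. The other trisomic arrays were at 11.92, 12.29, 12.34 and 12.45 (trisomy 13), 12.21, 11.70 and 11.76 (trisomy 16) and 11.87 (trisomy 19). Trisomy 1 was thus 0.97 above the highest control, and the difference of 1.09 ± 0.23, or 2.12-fold, had the lowest adjusted p of the members (0.14 in limma). All 3 Adipor1 probe sets were above every control, by 1.09 to 2.79 over the control mean.

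Bmpr2, a type II receptor for bone morphogenetic proteins, was at 6.27, above 8 of 9 controls, with a difference of 0.73 ± 0.61. Epha4, an ephrin receptor, was at 8.18, which was 0.06 above the highest control. Ddr2, a receptor tyrosine kinase that binds fibrillar collagen, had the lowest difference of the receptors, 0.05 ± 0.72. It was 10.68 to 11.82 in controls, with a median of 11.14, and 11.29 in trisomy 1. The values were 10.76, 10.93, 9.17 and 8.46 in trisomy 13, 10.42, 11.02 and 12.12 in trisomy 16, and 11.70 in trisomy 19. The 3 lowest Ddr2 values were those of the 3'-biased arrays. The other Wnt receptor of the list, Fzd5, was near the floor of the array at 2.92 in trisomy 1 and 2.82 to 2.92 in controls.

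Among the 3 genes of intracellular signalling, Irs1 and Cul3 were above all 9 controls and Rgs2 was not. Irs1, an adaptor below the insulin and IGF1 receptors, ran from 11.40 to 12.72 in controls, with a median of 11.83, and was 12.75 in trisomy 1. It was 11.30, 11.84, 12.23 and 12.20 in trisomy 13, 12.06, 11.80 and 11.61 in trisomy 16, and 12.03 in trisomy 19. Trisomy 1 was the highest array, but only 0.03 above the highest control, which was the number-matched one, and the difference from the control mean was 0.82 ± 0.43.

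Cul3, the scaffold of a ubiquitin ligase, was at 12.50 against 12.03 ± 0.16 (SD, n = 9), a difference of 0.47. Rgs2, an inhibitor of G protein signalling that responds to many stimuli, had the largest SD of the tested members among the 9 controls (1.96), followed by Prelp (1.63). Its control values ran from 3.82 to 9.79, with a median of 7.00, and the highest was the number-matched control. It was 6.52 in trisomy 1, 6.55, 6.45, 7.23 and 8.03 in trisomy 13, 4.81, 4.75 and 4.24 in trisomy 16 and 6.16 in trisomy 19. The trisomy 16 values and those of control replicates 1 to 3 (4.07, 3.82 and 4.82), whose titles share first numbers with trisomy 16, were the lowest. The trisomy 1 difference of -0.03 ± 1.51 was far inside this spread.

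All 9 tested transcription genes were above the control mean, and 4 were above all 9 controls. Atf6, a membrane-bound factor that is released when unfolded protein builds up in the endoplasmic reticulum, ran from 7.70 to 9.18 in controls, with a median of 8.64, and was 9.94 in trisomy 1. It was 8.67, 9.03, 8.89 and 9.66 in trisomy 13, 9.51, 8.22 and 7.07 in trisomy 16, and 8.71 in trisomy 19. Trisomy 1 was the highest array, at a difference of 1.37 ± 0.64 (adjusted p 0.78 in limma). Creg1, a secreted glycoprotein first described as a repressor of E1A-activated genes, was at 11.11 against 9.44 to 10.13 in controls. The difference was 1.29 ± 0.33 (adjusted p 0.32 in limma), and no other trisomic array exceeded 10.12.

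Gli2, a zinc finger factor that carries hedgehog signals to target genes, was at 10.28, the highest of the 18 arrays and 0.77 ± 0.61 above the control mean. Ccnt2, a cyclin of the transcription elongation kinase, had a difference of 0.70. Elk4, an Ets factor of the serum response, was at 0.48, Prrx1, a homeobox factor of mesenchyme, at 0.30 and Creb1, the cAMP response factor, at 0.28. All of the last 3 were inside the control range. Prrx1 had 4 probe sets with differences from -0.21 to 1.04.

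Atf3, a stress-induced factor of the same bZIP class as Creb1, had the lowest difference of the group, 0.15 ± 1.07. Its values were 3.94 to 7.19 in controls, with a median of 6.0, and 6.15 in trisomy 1. It was 5.86, 6.09, 7.52 and 6.43 in trisomy 13, 5.39, 2.59 and 4.80 in trisomy 16, and 6.07 in trisomy 19. The trisomy 1 value sat in the middle of the controls. Btg2, an antiproliferative gene of the p53 response, was at 10.97 and inside the control range of 9.11 to 11.41, with a difference of 0.36. A second Btg2 probe set was above all 9 controls, with a difference of 2.03. The clock gene Per2 was at 3.10 in trisomy 1 and 2.91 to 3.87 in controls, below the minimum for testing.

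Creb1 and Atf3 belong to a class of factors that bind the cAMP response element, TGACGTCA, and clock factors bind the E-box CACGTG. Both motifs read the same on either strand. The RefSeq promoter table (GRCm38.p6) held 36 of the 42 listed genes. In the 250 bases before the start, the full element was present in 1 of the 36, Btg2, and in 1.77% of 27025 genes. The shorter form TGACG, searched on both strands and contained in the full element, was present in 13 of the 36 and in 19.8% of all genes. The E-box was present in 3 of the 36 (Irs1, Parp1 and Xrcc5) and in 6.86% of all genes. These 4 windows of 60 bases are shown because they hold the full element that Creb1 and Atf3 bind or the E-box of clock factors. Each is written 5' to 3' on the strand of its gene, with the motif in capitals, and a match describes the letters and not binding.
Btg2, chr1:134079288-134079347, minus strand, motif from 166 bases before the start: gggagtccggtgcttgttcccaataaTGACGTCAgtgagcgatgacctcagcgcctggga
Irs1, chr1:82291522-82291581, minus strand, motif from 115 bases before the start: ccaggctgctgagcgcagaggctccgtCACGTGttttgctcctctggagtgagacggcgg
Parp1, chr1:180568815-180568874, plus strand, motif from 49 bases before the start: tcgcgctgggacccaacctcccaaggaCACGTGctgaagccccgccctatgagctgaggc
Xrcc5, chr1:72307196-72307255, plus strand, motif from 198 bases before the start: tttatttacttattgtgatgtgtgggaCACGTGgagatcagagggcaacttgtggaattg
In trisomy 1 the differences of these genes from the control mean were 0.36, 0.82, -0.44 and 0.65, with Irs1 and Xrcc5 above all 9 controls and Btg2 and Parp1 inside the range.

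The 3 tested genes of apoptosis and p53 control were all above every control and were the highest of the 18 arrays in trisomy 1. Cflar encodes c-FLIP, a catalytically inactive relative of caspase-8 that blocks its activation at death receptors. Its values were 8.08 to 9.74 in controls, with a median of 9.16, and 11.12 in trisomy 1. It was 9.57, 9.45, 9.05 and 9.91 in trisomy 13, 9.42, 9.59 and 8.64 in trisomy 16, and 9.50 in trisomy 19. The trisomy 1 array was 1.39 above the highest control, and the difference of 2.01 ± 0.51, or 4.03-fold, was the largest of the 35 members (adjusted p 0.32 in limma). The other 2 Cflar probe sets above the minimum differed by 1.07 and 0.11, the latter above 6 of 9 controls.

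Casp8, the initiator caspase of death receptor signalling and the immediate neighbour of Cflar among protein-coding genes, was at 10.76 against 8.64 to 10.29 in controls. The difference was 1.22 ± 0.65 (adjusted p 0.88 in limma). Mdm4, which holds p53 inactive, had the lowest difference of the 3, 0.66 ± 0.50. It was 8.02 to 9.60 in controls, with a median of 9.24, and 9.67 in trisomy 1. The values were 8.96, 9.16, 8.65 and 8.50 in trisomy 13, 9.20, 8.49 and 8.37 in trisomy 16, and 8.93 in trisomy 19. Trisomy 1 was 0.07 above the highest control, and a second Mdm4 probe set differed by -0.03. Bcl2, the anti-apoptotic founder of its family, was near the floor, at 3.04 in trisomy 1 and 2.68 to 2.72 in controls.

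The DNA repair genes went in both directions, with 2 of 4 above all controls and 2 below the control mean. Ercc5 (XPG), an endonuclease of nucleotide excision repair, ran from 7.37 to 8.70 in controls, with a median of 8.15, and was 9.82 in trisomy 1. It was 6.80, 8.41, 8.64 and 9.29 in trisomy 13, 9.36, 8.29 and 7.44 in trisomy 16, and 8.63 in trisomy 19. The trisomy 1 array was the highest, with a difference of 1.66 ± 0.71 (adjusted p 0.70 in limma). Xrcc5 (Ku80), part of the end-joining complex, was at 8.14, 0.06 above the highest control.

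Exo1, an exonuclease of mismatch repair and recombination, had the lowest difference of all members, -1.16 ± 1.16. It was 5.32 to 8.42 in controls, with a median of 6.11, and 5.34 in trisomy 1. The values were 5.08, 4.29, 5.84 and 6.06 in trisomy 13, 8.45, 8.22 and 4.99 in trisomy 16, and 5.33 in trisomy 19. Trisomy 1 was above 1 of 9 controls, and controls 1 and 2 (8.42 and 7.97) stood above the other 7. Parp1, which marks DNA breaks with poly(ADP-ribose), was at 9.95 and above 1 of 9 controls, a difference of -0.44. The other 2 Parp1 probe sets differed by 0.49 and 0.21.

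Both nuclear genes were above the control mean. Ncl, the nucleolar protein nucleolin, was 13.98 to 14.68 in controls, with a median of 14.35, and 14.86 in trisomy 1. It was 14.08, 14.04, 11.24 and 10.08 in trisomy 13, 10.50, 14.48 and 14.23 in trisomy 16, and 14.39 in trisomy 19. Trisomy 1 was the highest of the 18, and the 3 values far below the rest were those of the 3'-biased arrays. The SE of the trisomy 1 difference, 0.54 ± 1.25, includes them.

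Lbr, the lamin B receptor of the inner nuclear membrane, was 10.79 to 12.06 in controls, with a median of 11.52, and 11.83 in trisomy 1. It was 11.01, 10.90, 11.18 and 11.33 in trisomy 13, 12.36, 12.05 and 10.72 in trisomy 16, and 11.43 in trisomy 19. The difference of 0.30 ± 0.46 left trisomy 1 inside the control range.

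The 4 tested metabolic genes were all above the control mean, and 3 were above all controls. Uap1, which makes UDP-N-acetylglucosamine for glycosylation, was 10.38 to 10.88 in controls, with a median of 10.69, and 11.58 in trisomy 1. It was 10.78, 10.56, 11.26 and 10.87 in trisomy 13, 11.26, 10.62 and 10.84 in trisomy 16, and 11.20 in trisomy 19. Trisomy 1 was 0.70 above the highest control, and the difference was 0.92 ± 0.28 (adjusted p 0.48 in limma). All 3 of its probe sets above the minimum had differences of 0.67 to 0.92. Its immediate neighbour Ddr2 had the difference of 0.05 given above.

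Fh1, the fumarase of the TCA cycle, had the lowest difference of this group, 0.43 ± 0.33. It was 11.38 to 12.09 in controls, with a median of 11.68, and 12.12 in trisomy 1. The values were 11.33, 11.26, 11.71 and 11.95 in trisomy 13, 12.43, 12.06 and 11.49 in trisomy 16, and 11.46 in trisomy 19. Trisomy 1 was 0.04 above the highest control. Glul, glutamine synthetase, had a difference of 0.62 and was 0.01 above the highest control. Idh1, the cytosolic isocitrate dehydrogenase that makes NADPH, had a difference of 0.57 and lay inside the range.

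Of 20 members with 2 or more probe sets at or above the minimum, 15 had all differences of 1 sign and 5 had both signs (Mdm4, Ncl, Parp1, Prrx1 and Rgs2). The remaining tested members had only 1 such probe set. Over all 35 tested members, 68 probe sets reached the minimum, of which 60 were higher in trisomy 1 than the control mean and 37 were above all 9 controls. The shares among probe sets of the other chromosome 1 genes are not given here.

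Of the 9 controls, replicate 9 was the number-matched one. Against it alone, 29 of 35 members were higher in trisomy 1, with a median difference of 0.44 on the log2 scale, or 1.35-fold. For the other chromosome 1 genes the median was 0.51 and 82.3% were higher, near the share of the members. For genes elsewhere the median was -0.07 and 43.7% were higher. This is 1 array against 1, with no test. The members below the number-matched control were Rgs2 (-3.27), Exo1 (-1.48), Parp1 (-0.51), Idh1 (-0.07), Creb1 (-0.02) and Lbr (-0.02).

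This control was itself high for the members. It was the highest of the 9 controls for 17 of 35 members, against 28.0% of the other chromosome 1 genes and 23.6% of the genes elsewhere. Its median difference from the mean of the other 8 controls was 0.34 for the members, 0.23 for the other chromosome 1 genes and 0.12 elsewhere. For 7 members, among them Irs1 (0.03), Glul (0.01), Mdm4 (0.07) and Xrcc5 (0.06), trisomy 1 and the number-matched control differed by under 0.1, although Irs1, Glul, Mdm4 and Xrcc5 were above all 9 controls.

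Other members stood higher against both references. Cflar was 1.39 above the number-matched control, Atf6 1.31, Ercc5 1.12, Creg1 0.98, Adipor1 0.97, Inhbb 0.92, Fzd7 0.88, Uap1 0.70 and Lamc1 0.58. Epha4 was 2.98 above this control, whose Epha4 value of 5.20 was the lowest of all 18 arrays, and Fmod was 1.58 and Btg2 1.37 above it.

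**Figure D2:**
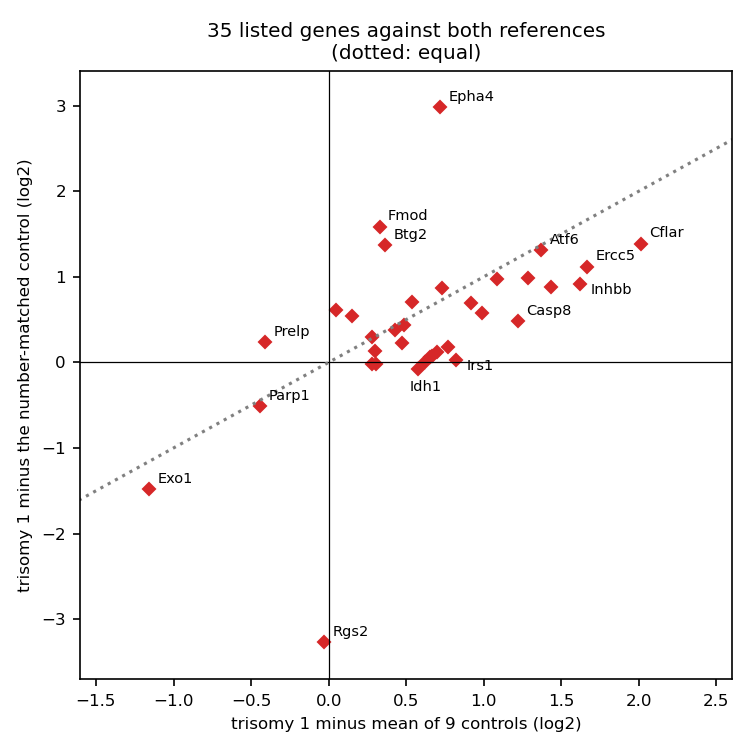
Difference of the trisomy 1 array from the mean of 9 controls (x axis, log2) and from the number-matched control (y axis, log2) for the 35 tested members, 1 point per gene, with a dotted line where both are equal. Cflar is high on both axes (2.01 and 1.39), Epha4 at 2.98 and Rgs2 at -3.27 lie far from the line, and Irs1 falls from 0.82 to 0.03.

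**Figure D3:**
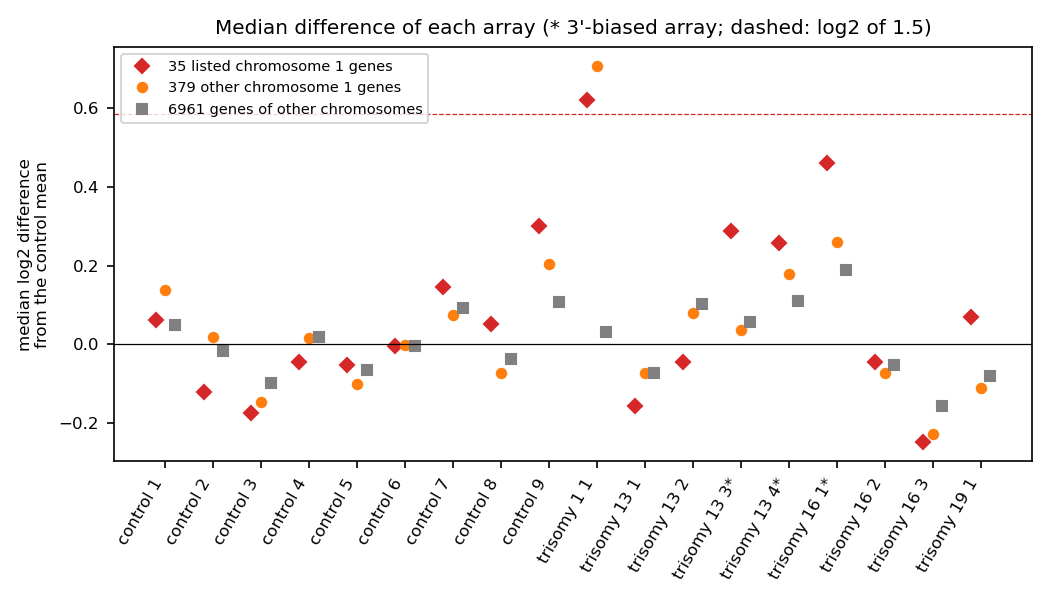
Median log2 difference of each array from the control mean (y axis) for the 35 members, the 379 other tested chromosome 1 genes and the 6961 genes elsewhere. Trisomy 1 has medians of 0.62, 0.71 and 0.03, and among the controls replicate 9, the number-matched one, has the highest member median, 0.30.

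When the 414 tested genes of the chromosome were put in order and divided into 10 parts of 41 or 42 genes, the median difference of a part ran from 0.56 to 0.91, and 78.0% to 95.2% of its genes were above the control mean. Each of the 10 parts therefore had its median above the control mean, and all but the first held members.

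Some members lay side by side on the chromosome, and whether neighbours differed from each other was not tested. Cflar and Casp8 (2.01 ± 0.51 and 1.22 ± 0.65, SE) had 0 protein-coding genes between them, as did Gli2 and Inhbb (0.77 ± 0.61 and 1.62 ± 0.59). Prelp, Fmod and Btg2 (-0.41 ± 1.60, 0.33 ± 0.92 and 0.36 ± 0.99) and Ddr2 and Uap1 (0.05 ± 0.72 and 0.92 ± 0.28) were also direct neighbours. Probe sets of 1 gene spread as well, from 0.11 to 2.01 for Cflar and from 0.36 to 2.03 for Btg2. The 3 lowest members, Exo1, Parp1 and Prelp, lay in the ninth and sixth parts, where the medians of all genes were 0.56 and 0.68.

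**Figure D4:**
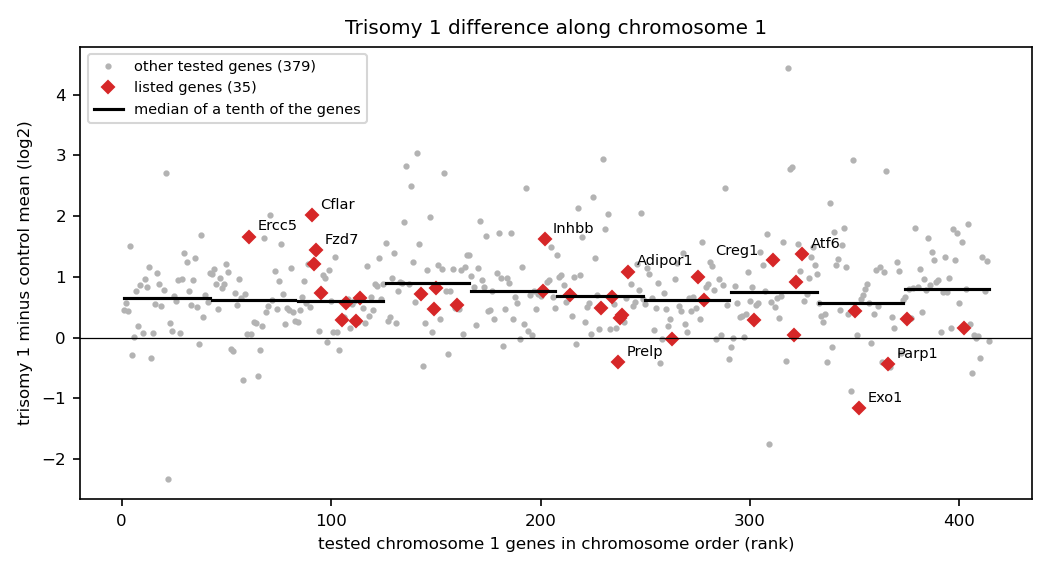
Difference of trisomy 1 from the control mean (y axis, log2) for the 414 tested chromosome 1 genes in chromosome order (x axis, rank). Red diamonds are the 35 members, grey points the other 379 genes, and black lines the medians of 10 parts of the genes, which run from 0.56 to 0.91.

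The labels of the other trisomic lines name no extra chromosome 1, and these lines served as a further reference. Against these 8 arrays the median member difference of trisomy 1 was 0.65. No member passed in limma, while 0.0542% of all tested genes did, and 8 members had an unadjusted p under 0.05, all higher in trisomy 1, against 7.10% of all tested genes. The latter share is again over all chromosomes and not over chromosome 1 alone. Creg1 had the lowest adjusted p (1.35 ± 0.33, adjusted p 0.28 in limma), followed by Adipor1 (0.86 ± 0.23, 0.32) and by Cflar (1.73 ± 0.52) and Lamc1 (0.94 ± 0.28), both 0.40.

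In trisomy 13, Gli2 was the 1 member that passed, and 1.76% of all tested genes passed. Its controls ran from 8.95 to 10.11, with a median of 9.58, and the trisomy 13 arrays were at 6.35, 8.28, 8.39 and 7.97. Trisomy 16 was at 9.77, 9.45 and 8.87 and trisomy 19 at 9.47. All 4 trisomy 13 arrays lay below every other array, and Gli2 fell by 1.77 ± 0.35 on the log2 scale (adjusted p 0.017 in limma). Its second probe set had a difference of -1.52. The call was lost without the 3'-biased arrays (-2.20, adjusted p 0.060 in limma), without trisomy 13 replicate 4 (-1.84, 0.065) and when replicate number was a block (-1.33, 0.23), while the direction was kept. By replicate number, deviations of trisomy 13 and control arrays correlated at -0.26 to -0.03. The call was kept with the first number, which trisomy 13 titles share with controls, as a block. Of 6 other hedgehog genes, 3 reached the minimum for testing. In trisomy 13 the receptor Ptch1 differed by 1.08 (adjusted p 0.22 in limma), its partner Smo by -0.03 (0.95) and the Gli inhibitor Sufu by 0.07 (0.88). Ptch1 is itself on chromosome 13, of which these lines carried 3 copies.

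In trisomy 13, 7 of 35 members had an unadjusted p under 0.05 in limma, near the 21.9% of all tested genes. They were Adipor1, Fn1 and Fzd7 above the controls and Gli2, Ddr2, Ncl and Fmod below them. Ddr2 differed by -1.41 ± 0.41 (adjusted p 0.084 in limma) and Ncl by -1.96 ± 0.71 (0.14). Without the 3'-biased arrays these differences were -0.39 and -0.26, that of Fzd7 was 0.06 in place of 0.66, and that of Adipor1 was 0.26 in place of 0.41. Fn1 (0.28) and Fmod (-1.69) were little different from their values with these arrays, 0.26 and -1.40. Leaving out trisomy 13 replicate 1 brought Adipor1 and Ddr2 past the threshold beside Gli2, and leaving out replicate 2 brought Ddr2 and Ncl. The 3'-biased arrays also had 12 to 15 of 35 members above the control range and 5 below it, against 21.4% to 31.0% of genes elsewhere above and 19.7% to 25.4% below.

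In trisomy 16, no member passed in limma, and 0.0406% of all tested genes did. Prelp (3.27 ± 1.01, adjusted p 0.35 in limma) and Atf3 (-1.74 ± 0.68, 0.59) had an unadjusted p under 0.05, as did 6.99% of all tested genes. Against the control of the same replicate number, Prelp was higher by 4.07, 4.21 and 3.53 in the 3 pairs, while Atf3 differed by 0.10, -1.34 and -0.42. With the replicate number as a replicate block, the differences were 4.26 (adjusted p 0.77 in limma) and -0.86 (0.999). With the first number as the block, which trisomy 16 titles share with controls, Prelp differed by 3.94 (adjusted p 0.27 in limma) and Atf3 by -0.56 (0.9997). The 3 Prelp values of 10.17 to 10.33 were close together and above every control, with the 3'-biased array at 10.17. In trisomy 19, with 1 array, no gene passed (0% of all tested genes), and Prelp alone among the members had an unadjusted p under 0.05, with a difference of 3.95 ± 1.60, against 1.96% of all tested genes. These comparisons share their 9 controls.

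**Figure D5:**
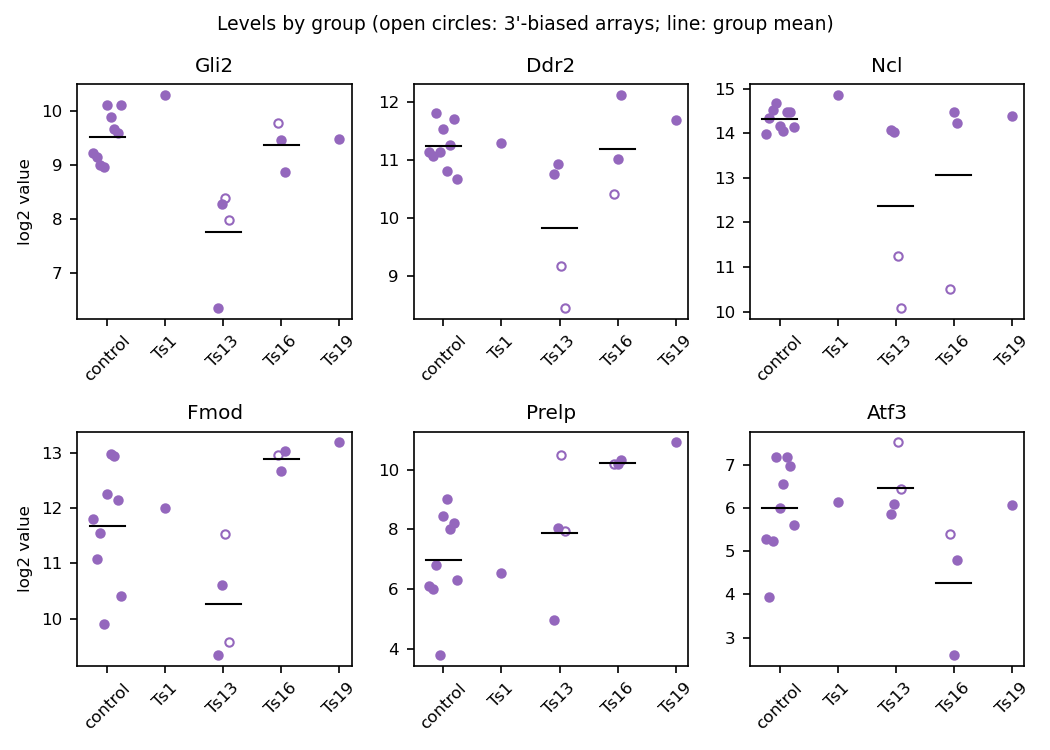
Log2 value (y axis) of 6 members on each array by group (x axis), with open circles for the 3'-biased arrays and a line at the mean of each group with several arrays. All 4 trisomy 13 arrays are below every control for Gli2, while for Ncl the low values are those of the 3'-biased arrays, and Prelp is above all controls in trisomies 16 and 19.

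The pathways in which the members act were then read from 13 lists of genes, with those on chromosome 1 left out. In trisomy 1, no gene of any list passed in limma. The counts at an unadjusted p under 0.05 in limma ran from 0 to 3 a list, and 6.29% of all tested genes lay there. Of 8 tested p53 genes, which bear on Mdm4 and Btg2, 6 were above the control mean and 4 above all controls, with a median difference of 0.79 against 0.03 for all genes off chromosome 1. Of the tested genes off chromosome 1, 53.2% were above the control mean and 11.8% above all 9 controls. Mdm2, the ubiquitin ligase that partners with Mdm4, was at 11.62 against 8.98 to 10.01 in controls, a difference of 2.02 ± 0.44 (adjusted p 0.17 in limma). The proapoptotic gene Pmaip1 was at 13.19 against 9.92 to 12.37, a difference of 2.07 ± 0.75. Cdkn1a, the cell cycle inhibitor p21, was at 13.99 against 12.24 to 13.18, a difference of 1.32 ± 0.49. Both had an adjusted p of 0.63 in limma. Against the number-matched control, Mdm2, Pmaip1 and Cdkn1a differed by 1.72, 0.83 and 1.26. The other p53 genes differed from it by 0.62 (Sesn2), 0.39 (Bbc3), 0.05 (Ccng1), -0.15 (Trp53inp1) and -0.89 (Gadd45a).

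Of 9 tested clock genes, which bear on Per2, 6 were at or below the control mean and the list's median was -0.04. The 3 with an unadjusted p under 0.05 in limma, where 6.29% of all tested genes lay, were all lower. Nr1d2 was at 10.50 against 11.13 to 11.75 in controls, a difference of -0.92 ± 0.33. Tef was at 7.48 against 8.12 to 9.31, and Dbp at 7.08, inside 6.80 to 9.86. The adjusted p values were 0.61, 0.63 and 0.77 in limma.

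Of 10 death receptor and Bcl2 family genes, 6 exceeded the control mean, and the median was 0.10. Bid, which caspase-8 cleaves, was at 10.86 against 9.35 to 10.43 (0.87 ± 0.36, adjusted p 0.69 in limma). Bcl2l1, which encodes the anti-apoptotic Bcl-xL, was at 9.50 against 7.60 to 9.08 (1.26 ± 0.54, 0.70). Of 14 receptors and partners of fibronectin and laminin, 9 exceeded the control mean, and the median was 0.25. Among these the integrin alpha 3 chain Itga3 was at 5.89 against 3.60 to 4.71 (1.74 ± 0.51, adjusted p 0.44 in limma).

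Of 7 genes of insulin receptor signalling, 5 were above the control mean. The regulatory subunit Pik3r1, which binds Irs1, was at 5.70 against 6.50 to 9.58, a difference of -2.48 ± 0.82 (adjusted p 0.54 in limma). Of 15 BMP and activin genes, 7 exceeded the control mean, and the median was -0.01. Fst, which encodes the activin antagonist follistatin, was at 11.64 against 8.17 to 10.75 (1.83 ± 0.84, 0.78). Of 13 ATF6 and unfolded protein targets, 7 exceeded the control mean, and the median was 0.06. Hyou1, a chaperone of the endoplasmic reticulum, was at 7.20 against 8.03 to 9.16 (-1.13 ± 0.45, 0.68).

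In the remaining lists, no gene had an unadjusted p under 0.05 in limma. Their medians were 0.24 for 14 Wnt genes, -0.04 for 3 hedgehog genes, -0.18 for 8 CREB and immediate early genes and -0.33 for 11 DNA repair partners. They were 0.02 for 10 TCA cycle and NADPH enzymes and 0.11 for 12 matrix genes of fibroblasts. Of the DNA repair partners, 3 of 11 were above the control mean and 2 were below all 9 controls. Among all tested genes off chromosome 1, 53.2% were above the control mean and 10.9% below all 9 controls. Xrcc6 (Ku70), which pairs with Xrcc5, was at 8.06 against 8.35 to 9.26, and Parp2 was at 8.21 against 8.58 to 9.66. In trisomy 13, where 1.76% of all tested genes passed, 1 gene of these lists did. This was the mitochondrial isocitrate dehydrogenase Idh2, which fell by 1.20 on the log2 scale (adjusted p 0.032 in limma). Trisomy 13 replicates 3 and 4 are 3'-biased, and no Idh2 value without them is given here.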

How the data were processed

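RNA of 18 MEF lines was labelled with biotin from 5 ug total RNA, per the labels' protocols, and hybridised to 1 array each. The deposited log2 values were made by the authors with GCRMA and affy, per the submitters' processing notes. Their versions, and whether 1 GCRMA run covered all arrays, were not given in the sources used here. Values ranged from 0.968 to 16.57, with array medians of 5.11 to 5.91. Arrays give no counting depth, and their number limits the precision.

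Probe sets annotated to 1 gene (20393) were used, while 691 with several genes and 1606 with none were left out. The probe set with the highest mean over 18 arrays stood for each of 12394 genes, placed on chromosomes by RefSeq GRCm38.p6, and the 7382 with a mean of at least 4 were tested. Limma 3.58.1 (R 4.3.3; lmFit, eBayes with trend) was fitted to 5 groups with 13 residual degrees of freedom, with Benjamini-Hochberg adjustment and a threshold of 0.05, two-sided. The labels do not say whether lines came from separate embryos, so the p-values cover the spread between these samples, which may be technical.

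By replicate number, deviations of trisomy 16 and control replicates 1 to 3 correlated at 0.52, 0.41 and 0.58. Each of these pairs also shares its first number. Correlations between different replicate numbers are not given here, so pairing by replicate number was not tested. Members, lists and tests were chosen with earlier results of these data known. Named genes are all members, with values by array for the highest and lowest of each role and those past a threshold, and up to 3 genes a list in order of p.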

Additional observations from a re-analysis of the deposited data

Results flagged for a closer look

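In 70 groups of values looked at (35 members in controls and in trisomy 13), 2 single values stood far from the rest of their group, and chance gives about 1 in 20 such groups. Epha4 was at 5.20 in control replicate 9, the number-matched control of the trisomy 1 line, and at 6.66 to 8.12 in the other 8 controls. Parp1 was at 9.37 in control replicate 3 and at 10.34 to 10.89 in the other 8.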

How the results depend on the processing

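Under 29 alternatives, 17 of which left out 1 array, 26 of the 35 tested members kept 1 direction in trisomy 1. The median member difference in trisomy 1 ran from 0.54 to 0.65 with 1 array left out, and 21 to 22 members were above all controls. The members called in trisomy 1, against 1.5-fold, against the other trisomies and in trisomies 16 and 19 numbered 0 in all of these fits, and 0 to 3 were called in trisomy 13. The count of members called in trisomy 1 was 1 with the Gapdh covariate and 2 without the filter on low values (Adipor1 and Bcl2). Without that filter it was 3 against 1.5-fold (Bcl2, Cflar and Fzd5), 1 against the other trisomies (Bcl2) and 2 in trisomy 13 (Fzd5 and Gli2), and Bcl2 and Fzd5 were near the floor. The trisomy 13 count was 2 with the mean of all probe sets (Gli2 and Parp1) and 0 without the 3'-biased arrays.

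With the first number as a replicate block, trisomy 1 is compared with the number-matched control alone. The median member difference was 0.44, 1 member (Rgs2) was called against 1.5-fold, below it, and the median of all genes moved by -0.10. Directions turned for Prelp (0.23), Creb1 (-0.018), Lbr (-0.020), Idh1 (-0.073), Ctnnb1 (-0.078) and Sufu (-0.30). With the replicate number as a replicate block the median was 0.86, 0 members were called in trisomy 13, and directions turned for Prelp (1.62), Ddr2 (-0.094), Rgs2 (2.18) and Lbr (-0.047). By that number trisomy 13 and control replicates were not paired, with correlations of -0.26 to -0.03, and trisomy 1 shares it with 1 control.

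With the probe set of largest variance, the median difference from the number-matched control was 0.63, and directions turned for Prrx1 (-0.21), Parp1 (0.49), Cs (0.29), Dnajc3 (0.12) and Itga5 (-0.38), and in trisomy 13 for Fn1 (-0.22) and Adipor1 (-0.44). Parp1 was 0.085 with the mean of all probe sets, and Atf3 was -0.0071 after quantile normalization. With 1 array left out, Atf3 ran from -0.11 to 0.30, Ddr2 from -0.025 to 0.12 and Rgs2 from -0.37 to 0.37. The causes of these changes were not tested. With a single trisomy 1 array, its own spread is unknown.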
